A study of Drosophila melanogaster with 3 samples.

Results

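The genes described here are *dm*, the single *Drosophila* Myc gene, and 8 genes that make ribosomes in the nucleolus. They are *Tif-IA*, *RpI1*, *RpI135*, *Fib*, *Nop60B*, *nop5*, *pit* and *Nnp-1*. They were chosen by name, as rows of the deposited expression table whose symbol is one of these, and all 9 were found among 15603 genes. The RNA came from cells of the eye-antennal disc (EAD), the larval epithelium that forms the eye and antenna, as 3 libraries with 1 for each group. The *RasV12; scrib-/-* tumor library holds GFP+ cells, and the tumor microenvironment (TME) library holds GFP- cells of discs with the same genotype. That genotype is *y,w* with *ey-flp*, *UAS-RasV12* over *Act>y+>Gal4* and *UAS-GFP*, and *scrib2* on *Frt82B* over *Frt82B* with *tubGal80*. The control library holds GFP+ cells of *GMRGFP* discs. The labels give Day 6 wandering larvae, 50 discs, batch 1 and FACS sorting for each library.

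Several limits of these pools bear on every comparison. The clones arise wherever *ey-flp* was active, and cells that kept *tubGal80* do not express RasV12 or GFP, so the TME can hold any unlabeled cell of the disc, with *scrib2* still present in a part of them. GMR drives expression behind the morphogenetic furrow, mostly in cells that have begun to differentiate. Genotype and position in the disc therefore cannot be told apart in either comparison with the control. A date stands in the column headings of the tumor and the TME but not in that of the control. Each group has 1 library, so the spread between discs or sorts is unknown and no p-value was computed.

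Myc is a transcription factor that binds DNA together with Max and drives cell growth. In flies its targets include many genes of ribosome biogenesis, and clones of cells with more Myc grow larger. Ribosome synthesis starts when RNA polymerase I, recruited with the help of Tif-IA, transcribes the ribosomal RNA genes. Small nucleolar ribonucleoproteins (snoRNPs) then modify and cut the transcript, and helicases and assembly factors fold it into the subunits. Growth signals through Ras, insulin and TOR act on these steps in many animals.

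Levels are given as FPKM, which is the number of fragments scaled by transcript length and by the fragments mapped in the library. The depth of each library, estimated from the steps between low FPKM values, was 1838000 fragments in tumor cells, 11011000 in TME cells and 1763000 in control cells. A gene of 2000 nt at 5 FPKM then rests on 16.9 fragments in tumor cells, 103 in TME cells and 16.5 in control cells. Intervals are exact at the 95% level, were computed from the estimated fragments, and hold counting error alone. The rule called a gene higher or lower where its FPKM was above 5 in the higher library and the ratio was at least 2. *Ras85D*, the gene of the expressed oncogene, was at 327 FPKM in tumor cells, 118 in TME cells and 139 in control cells. The tumor level was 2.36 times the control (interval 2.11 to 2.64) and 2.77 times the TME, where reads of the transgene and of the resident gene cannot be told apart.

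All 9 genes were above 0 in every library, and all had more than 5 FPKM in each. Their summed level was 925 FPKM in tumor cells, 647 in TME cells and 402 in control cells. In the tumor against the control, 6 of the 9 were at least 2 times higher, none was lower, and the median ratio was 2.56 (log2 1.36). Across all 7686 genes above the floor, 12.3% were at least 2 times higher, 17.6% were at least 2 times lower, and the median ratio was 1.00. The interval lay above 1 for 8 of the 9 genes, against 27.3% of all genes with an interval. The levels ran tumor, TME, control, highest to lowest, for 8 of the 9, all but *Tif-IA*, and 26.2% of 7765 genes had that order. FPKM is a share of the RNA of a pool, so fewer cells of a type and less RNA per cell cannot be told apart.

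**Figure D1:**
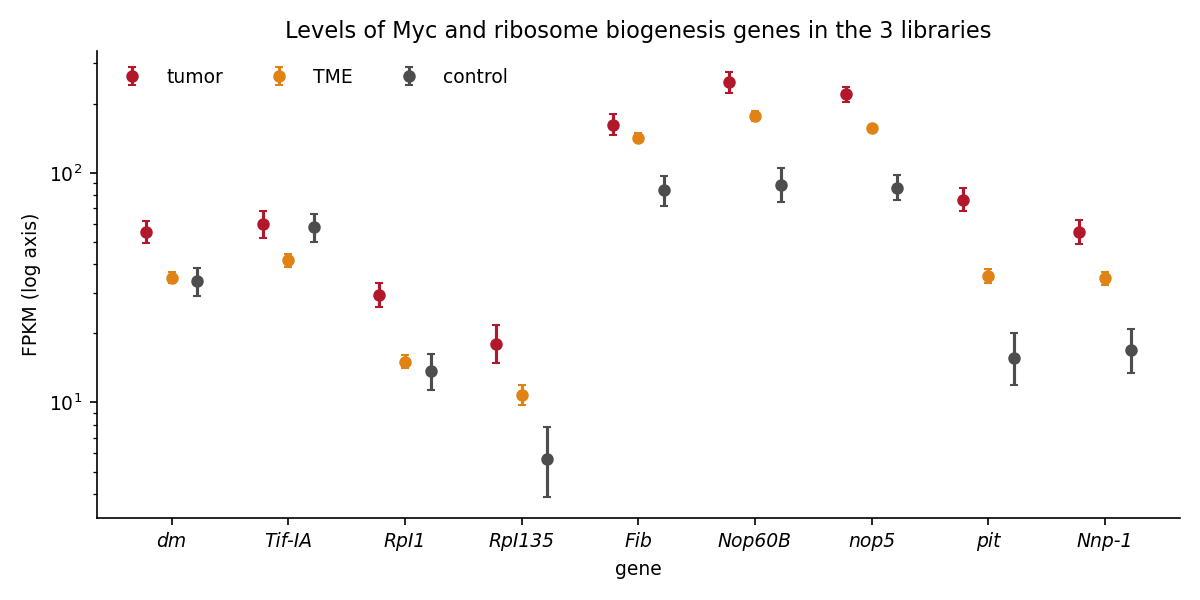
Levels of the 9 genes in FPKM on a log axis, with the tumor, TME and control libraries from left to right for each gene and bars for 95% counting intervals. Of the 3 libraries the tumor is highest for all 9 genes, with the interval of *Tif-IA* overlapping that of the control and its ratio to the control at 0.976 when the 100 most abundant genes are left out of the totals.

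*dm* itself differed less between the tumor and the control than 7 of its 8 companions. It was at 55.4 FPKM in tumor cells, 34.9 in TME cells and 33.7 in control cells. The tumor level was 1.64 times the control (interval 1.38 to 1.97) and 1.59 times the TME (interval 1.40 to 1.79). The TME over control ratio was 1.04 (interval 0.894 to 1.21). As deposited, the tumor thus stood above both other libraries, which did not differ beyond counting error. That TME over control ratio was 1.16 under median ratio scaling and 1.14 under upper quartile scaling, for which no interval was computed. The *dm* levels rest on 339 estimated fragments in tumor cells, 1292 in TME cells and 199 in control cells. Neither *dm* ratio with the tumor reached 2, and the gene ranked 1506 of 7686 for tumor over control.

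The RNA polymerase I genes did not share one pattern. *Tif-IA*, which brings the polymerase to the ribosomal RNA promoter, was at 59.8 FPKM in tumor cells, 41.6 in TME cells and 57.8 in control cells. The tumor over control ratio was 1.03 (interval 0.851 to 1.26), so that tumor and control did not differ beyond counting error. It was 0.976 when the 100 most abundant genes were left out of the totals. The TME was the low library for this gene, at 0.719 times the control (interval 0.618 to 0.841), and the tumor over TME ratio was 1.44 (interval 1.23 to 1.67).

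*RpI1*, which encodes the largest subunit of RNA polymerase I, was at 29.5 FPKM in tumor cells, 15.1 in TME cells and 13.7 in control cells. Its tumor level was 2.15 times the control (interval 1.74 to 2.71) and 1.95 times the TME (interval 1.70 to 2.25). Like *dm*, it was high in the tumor alone as deposited, with a TME over control ratio of 1.10 (interval 0.911 to 1.35). That ratio was 1.23 under median ratio scaling and 1.21 under upper quartile scaling. Whether counting error still covers 1 there was not tested. *RpI135*, which encodes the second largest subunit, was the least abundant of the 9 genes in each library, at 18.0 FPKM in tumor cells, 10.8 in TME cells and 5.64 in control cells. The tumor level was 3.18 times the control, with an interval of 2.17 to 4.86, and the control value rests on 34 fragments. Its TME level also stood above the control, with a ratio of 1.91 (interval 1.35 to 2.81), and the tumor over TME ratio was 1.66 (interval 1.35 to 2.07). *RpI1* was 1.64 times *RpI135* in the tumor, 1.40 times in the TME and 2.42 times in the control, in FPKM.

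The snoRNP genes were the most abundant of the 9 in all 3 libraries. *Nop60B*, the fly dyskerin that makes pseudouridine in ribosomal RNA, was at 249 FPKM in tumor cells, 177 in TME cells and 88.7 in control cells. The tumor level was 2.80 times the control (interval 2.29 to 3.44), the TME level 1.99 times the control (interval 1.66 to 2.39), and the tumor over TME ratio 1.41 (interval 1.25 to 1.57). All 3 libraries were thus separated beyond counting error. *nop5*, which encodes a core protein of box C/D snoRNPs, was at 220 FPKM in tumor cells, 156 in TME cells and 86.1 in control cells. Its tumor over control ratio was 2.56 (interval 2.21 to 2.96), its tumor over TME ratio 1.41 (interval 1.29 to 1.53) and its TME over control ratio 1.81 (interval 1.59 to 2.07).

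*Fib* encodes fibrillarin, the methyltransferase of the same box C/D particles. It was at 162 FPKM in tumor cells, 142 in TME cells and 83.9 in control cells. The tumor over control ratio of 1.94 (interval 1.61 to 2.33) was just under the rule, while that of *RpI1* was just over it. *Fib* differed least between the tumor and the TME, with a ratio of 1.14 (interval 1.02 to 1.28), and its TME over control ratio was 1.69 (interval 1.45 to 1.99). The *Fib* level was 0.736 times that of *nop5* in the tumor, 0.910 times in the TME and 0.973 times in the control.

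The assembly genes *pit* and *Nnp-1* had the largest tumor over control ratios of the 9. *pit* (pitchoune), a DEAD-box helicase described as a Myc target in flies, was at 76.4 FPKM in tumor cells, 35.5 in TME cells and 15.6 in control cells. Its tumor over control ratio of 4.89 (interval 3.69 to 6.58) was the largest of the 9 and ranked 129 of 7686 genes. *pit* was also the only gene of the 9 called in all 3 comparisons, with a tumor over TME ratio of 2.15 (interval 1.88 to 2.46) and a TME over control ratio of 2.28 (interval 1.74 to 3.01). *Nnp-1*, a nucleolar protein of large subunit assembly, was at 55.3 FPKM in tumor cells, 34.7 in TME cells and 16.8 in control cells. The tumor level was 3.28 times the control (interval 2.55 to 4.24) and 1.60 times the TME (interval 1.39 to 1.82), and the TME level was 2.06 times the control (interval 1.64 to 2.60). For both genes no pair of libraries overlapped within counting error.

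**Figure D2:**
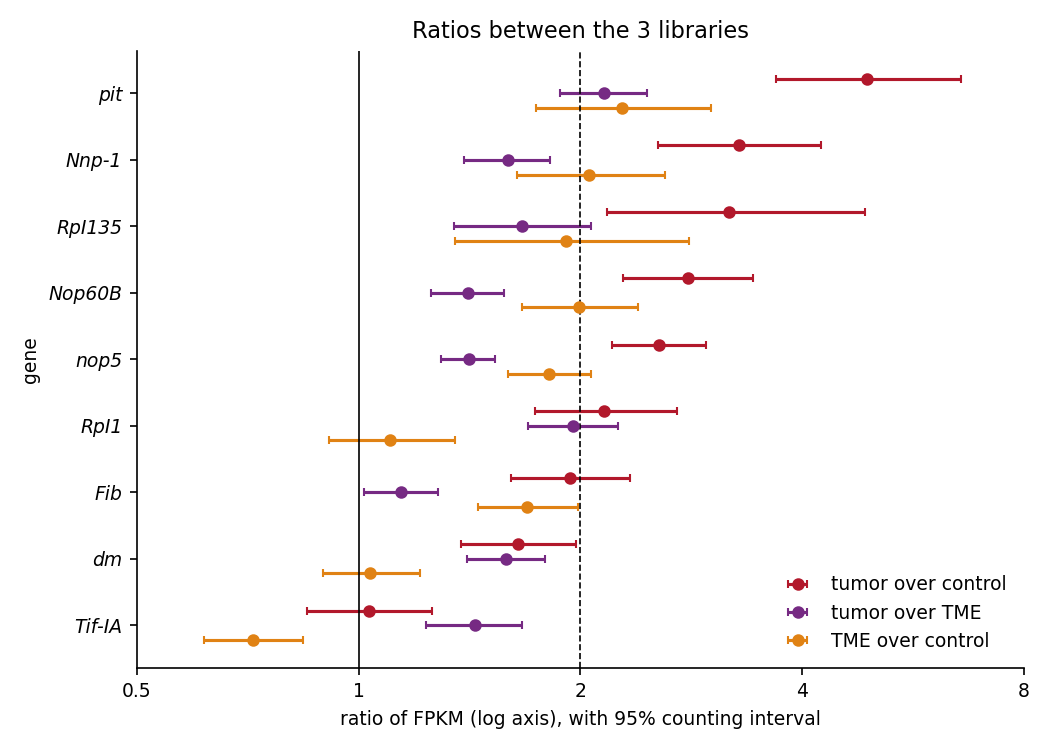
Ratios of FPKM on a log axis for the 3 pairs of libraries (tumor to control, tumor to TME, TME to control), with bars for 95% counting intervals, the solid line at 1 and the dashed line at 2. *pit* lies beyond 2 in all 3 comparisons, and *dm* and *RpI1* lie near 1 only for TME over control.

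The step between the tumor and the TME was smaller than that between the tumor and the control for all 9 genes but *Tif-IA*. Only *pit* was called higher in tumor against TME cells, 1 of 9, against 6.35% of 7166 genes higher and 7.38% lower. The median ratio was 1.59 (log2 0.67), against 1.12 over all genes, with a range of 1.14 to 2.15. Under median ratio or upper quartile scaling the *pit* call was lost, leaving 0 of 9. As deposited, the interval lay above 1 for all 9, against 35.7% of all genes, where the deeper TME library makes intervals narrow. That of *Fib* began at 1.02, and its ratio of 1.14 was near the 1.12 over all genes and ranked 3479 of 7166. The *Fib* ratio was 1.05 under median ratio scaling and 1.04 under upper quartile scaling, and intervals were not computed under these. In the TME against the control, *pit* and *Nnp-1* were at least 2 times higher, 2 of 9, and none was lower, against 5.8% of 7827 genes higher and 14.8% lower. Under the same scalings the count for TME over control became 5 and 4 of 9. The median ratio was 1.81 (log2 0.86), against 0.917 over all genes. The interval lay above 1 for 6 of the 9, against 20.5% of all genes, and below 1 for *Tif-IA*.

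The order of the 9 levels was much the same at both ends in each library. *Nop60B*, *nop5* and *Fib* were the highest and *RpI1* and *RpI135* the lowest in all 3. *pit* changed place, standing above *Tif-IA* in tumor cells, between *Tif-IA* and *dm* in TME cells, and below *Nnp-1* in control cells. In the tumor, the neighbors *Nop60B* and *nop5* overlapped within counting error, as did *pit* with *Tif-IA*, *Tif-IA* with *dm* and *dm* with *Nnp-1*. In the TME, *pit* overlapped with *dm* and *dm* with *Nnp-1*. In the control, *Nop60B* overlapped with *nop5*, *nop5* with *Fib*, *Nnp-1* with *pit* and *pit* with *RpI1*.

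The other ribosome biogenesis genes were taken from 5 lists of the same steps, 43 genes without the 9. In the tumor against the control, 24 of the 43 were at least 2 times higher and none was lower, against 12.3% and 17.6% of all genes. The median ratio was 2.05 (log2 1.04), against 1.00 over all genes. The ratio was above 1 for 41 of the 43. The interval lay above 1 for 34 of the 40 that have one, against 27.3% of all genes. In the tumor against the TME, 9 of the 43 were higher and none was lower, against 6.35% and 7.38% of all genes, with a median ratio of 1.53. That count was 3 under median ratio scaling, 2 under upper quartile scaling and 3 without the 100 most abundant genes. In the TME against the control, 3 of the 43 were higher, near the 5.8% of all genes, and none was lower, with a median ratio of 1.39. That count was 5 under median ratio or upper quartile scaling. The order tumor, TME, control held for 37 of the 43, against 26.2% of 7765 genes.

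Of 5 further RNA polymerase I genes, 2 were called higher in tumor against control cells, against 12.3% of all genes. *CG3756*, the subunit Polr1C, was at 29.98 FPKM in tumor cells, 15.7 in TME cells and 7.75 in control cells, with a tumor over control ratio of 3.87 (interval 2.12 to 7.54). *l(2)37Cg*, the subunit Polr1D, was at 57.0 FPKM in tumor cells, 47.9 in TME cells and 18.5 in control cells. Both were also called higher in TME against control cells. *CG18316* (*udd*), which acts in ribosomal RNA transcription, had the smallest tumor over control ratio of the group, 0.759. The interval was 0.544 to 1.05, so tumor and control did not differ beyond counting error. Its levels were 44.4 FPKM in tumor cells, 74.9 in TME cells and 58.4 in control cells. The subunit *RpI12* had an interval of 0.552 to 9.35 for tumor over control and cannot be placed at this depth.

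Of 5 further snoRNP genes, 4 were called higher in tumor against control cells, against 12.3% of all genes. They were *NHP2* with a ratio of 2.77, *Nop56* with 2.65, *hoip* with 2.15 and *CG4038*, the fly Gar1, with 2.13. *NHP2*, a partner of *Nop60B* in H/ACA snoRNPs, was at 225 FPKM in tumor cells, 147 in TME cells and 81.0 in control cells. The *Nop60B* level was 1.11 times that of *NHP2* in the tumor, 1.20 times in the TME and 1.09 times in the control. *CG7637*, the fly Nop10, had the smallest ratio, 1.27, and is too short for an interval.

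Among 16 further large subunit genes, 7 were called higher in tumor against control cells, against 12.3% of all genes. *nclb* had the largest ratio, with 76.8 FPKM in tumor cells, 36.9 in TME cells and 29.3 in control cells, which is 2.63 times. *CG5033*, *CG6724* and *CG8939* had ratios of 2.54, 2.41 and 2.39, and *ppan* and *CG32344* had 2.05 and 2.04. *nclb*, *CG5033* and *CG8939* were also called higher in tumor against TME cells as deposited, and all of these 3 calls were lost in each of the 3 scalings. Those of *ppan* and *CG32344* against the control were lost without the 100 most abundant genes. *CG8801* (*Non1*), a GTPase of the 60S subunit, had the smallest ratio, with 391 FPKM in tumor cells, 462 in TME cells and 375 in control cells.

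Of 12 small subunit processome genes, 9 were called higher in tumor against control cells, against 12.3% of all genes. *wcd*, a protein of the U3 snoRNP, was at 36.5 FPKM in tumor cells, 17.1 in TME cells and 7.77 in control cells. Its tumor over control ratio of 4.70 (interval 2.91 to 7.92) was the largest of the 43. It was called in all 3 comparisons as deposited, but its tumor over TME ratio of 2.13 was under 2 in each of the 3 scalings. *l(3)72Dn*, *CG5728* (*Rrp5*) and *l(2)k09022* had ratios of 3.58, 3.04 and 3.02, and *vito*, *CG7728*, *kz*, *CG12050* and *bys* had ratios of 2.31, 2.29, 2.10, 2.08 and 2.07. *wcd*, *l(3)72Dn*, *CG5728*, *l(2)k09022* and *CG7728* were also called higher in tumor against TME cells. Of these, *l(3)72Dn* and *CG7728* kept the call in all 3 scalings, *CG5728* in 2 and *wcd* and *l(2)k09022* in 0. Without the 100 most abundant genes, *kz*, *CG12050* and *bys* were no longer called against the control. *Dbp45A* had the smallest ratio, 1.11, with 20.8 FPKM in tumor cells, 21.3 in TME cells and 18.7 in control cells.

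Of 5 nucleolar proteins, *Nopp140* and *mod* were called higher in tumor against control cells, against 12.3% of all genes. *Nopp140*, a chaperone of snoRNPs, was at 151 FPKM in tumor cells, 74.0 in TME cells and 46.5 in control cells, with a tumor over control ratio of 3.26 and a tumor over TME ratio of 2.05, which was under 2 in each scaling. *mod* (modulo), a nucleolar protein and known Myc target in flies, was at 493 FPKM in tumor cells, 315 in TME cells and 211 in control cells, 2.34 times between tumor and control. *Noa36* had the smallest ratio, 0.778, with 24.9 FPKM in tumor cells, 23.6 in TME cells and 32.0 in control cells.

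**Figure D3:**
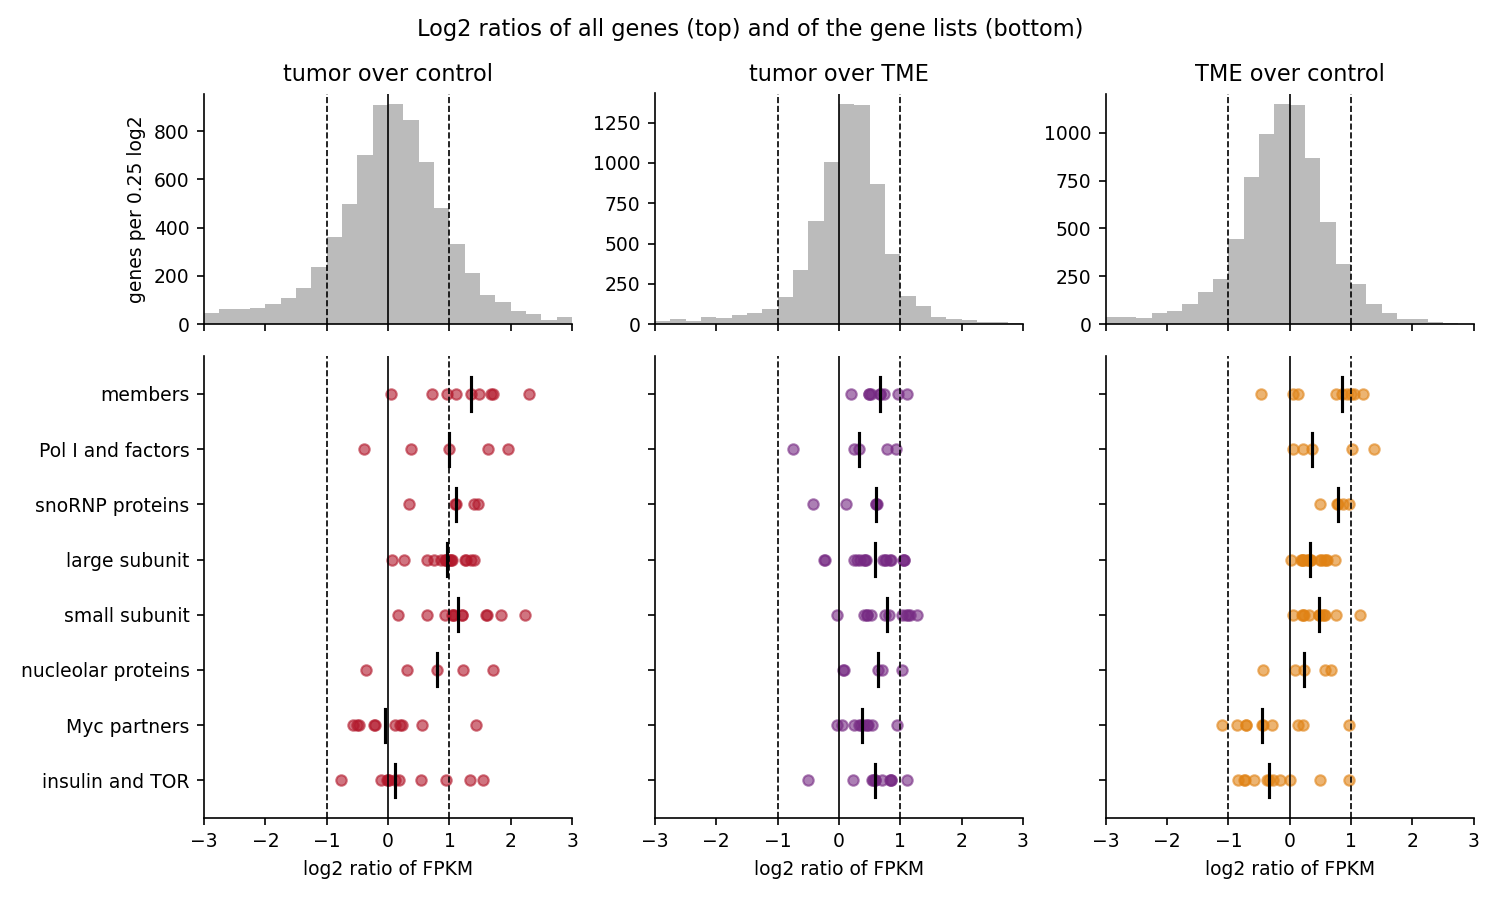
Log2 ratios of FPKM for all genes above 5 FPKM in the higher library (top, genes per bin of 0.25) and for the 9 genes (row "members") and other gene lists (bottom, 1 point per gene, black bars at the list median), with dashed lines at 1 and -1. The medians of the 9 genes are 1.36 for tumor over control, 0.67 for tumor over TME and 0.86 for TME over control, and those of Myc partners lie near or under 0 in both comparisons with the control.

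Genes that act with or on Myc had a median tumor over control ratio near 1. Of 10 such genes, 1 was called higher in tumor against control cells, near the 12.3% of all genes, and none was lower, with a median ratio of 0.968. The interval lay above 1 for 2 of the 10, near the 27.3% of all genes, and below 1 for 4. For tumor over TME the median was 1.30, against 1.12 over all genes, with the ratio above 1 for 9 of the 10. For TME over control the median was 0.732, against 0.917 over all genes. The gene called higher was *rept* (reptin), an ATPase that binds Myc, at 74.6 FPKM in tumor cells, 54.2 in TME cells and 27.7 in control cells, 2.70 times between tumor and control (interval 2.07 to 3.55). *Max*, the DNA-binding partner, was at 49.2 FPKM in tumor cells, 47.4 in TME cells and 43.2 in control cells. *Mnt*, which represses Myc targets, was at 17.0 FPKM in tumor cells, 13.3 in TME cells and 24.3 in control cells. *lid*, a histone demethylase that binds Myc, had the smallest tumor over control ratio, 0.673, with 25.1 FPKM in tumor cells, 17.3 in TME cells and 37.3 in control cells, and it was called lower in TME against control cells.

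Of 11 insulin and TOR genes, 2 were called higher in tumor against control cells, near the 12.3% of all genes, and none was lower. The median ratio was 1.08, against 1.00 over all genes. For tumor over TME the median was 1.51, against 1.12 over all genes, with 1 gene called higher, near the 6.35% of all genes. It was 0.790 for TME over control, against 0.917 over all genes, with none called. *foxo*, a transcription factor held back by insulin signaling, was at 24.9 FPKM in tumor cells, 16.6 in TME cells and 8.51 in control cells, a tumor over control ratio of 2.93. *Thor*, the fly 4E-BP that restrains translation and a known target of *foxo*, was at 353 FPKM in tumor cells, 197 in TME cells and 140 in control cells, a ratio of 2.52. *S6k*, the ribosomal protein S6 kinase, was at 64.8 FPKM in tumor cells, 30.2 in TME cells and 33.7 in control cells, and had a tumor over TME ratio of 2.15, which was under 2 under median ratio and upper quartile scaling. *Rheb*, which activates TOR, had the smallest tumor over control ratio, 0.585, with 35.8 FPKM in tumor cells, 50.6 in TME cells and 61.2 in control cells.

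The 5 protein-coding genes most like *dm* in pattern, by the distance between centered log2 FPKM over the 3 libraries, were *Pax*, *CG6509*, *Pros54*, *CG4972* and *CG2918*. The distances were between 0.011 and 0.021, over 5948 genes above 5 FPKM in every library. With 3 libraries such a pattern is common, and 99 genes lay within a distance of 0.1. Of the other 8 genes, *RpI1* was nearest to *dm* at rank 856 of 5947, and *pit* was farthest at rank 5232.

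Markers of cell types other than the disc epithelium moved with the comparisons, and their part in the differences was not tested. The 7 eye disc markers summed to 324 FPKM in tumor cells, 312 in TME cells and 198 in control cells, and none was at 0. They did not all move alike. In tumor against control cells 2 were called higher, and in tumor against TME cells *ato* was called lower, with a ratio of 0.424. *gl* was at 16.1 FPKM in tumor cells, 29.6 in TME cells and 11.6 in control cells, and was called higher in TME against control cells. The 7 photoreceptor and neuron markers summed to 17.4 FPKM in tumor cells, 22.3 in TME cells and 284 in control cells. Of the 7, 6 were at least 2 times lower than in the control in both the tumor and the TME. The exception, *chp*, was low in every library, at 1.51 FPKM in tumor cells, 1.81 in TME cells and 1.92 in control cells. The 7 hemocyte markers summed to 30.7 FPKM in tumor cells, 330 in TME cells and 346 in control cells, and 6 of the 7 were called lower in tumor cells against both other libraries.

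**Figure D4:**
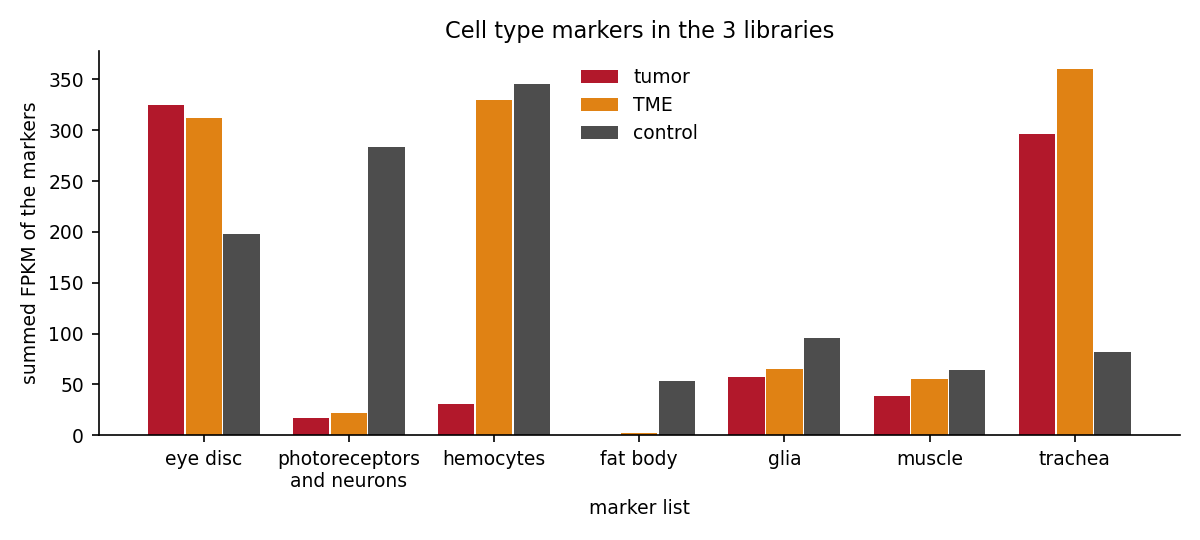
Summed FPKM of the markers of each cell type, on a linear axis from 0, with the tumor, TME and control libraries from left to right. Neuron markers sum to 17.4 FPKM in tumor cells and 22.3 in TME cells, against 284 in the control, and hemocyte markers to 30.7 in the tumor, against 330 in the TME and 346 in the control.

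The 6 fat body markers summed to 0.716 FPKM in tumor cells, 2.59 in TME cells and 53.0 in control cells, with *Lsp1alpha*, *Lsp1beta*, *Fbp1* and *Fbp2* listed at 0 in the tumor. The 4 glial markers summed to 57.5 FPKM in tumor cells, 65.6 in TME cells and 95.3 in control cells, with none at 0, and their calls for tumor over control ran both ways, with *moody* higher and *repo* and *gcm* lower. Those of muscle, 5 genes, summed to 38.9 FPKM in tumor cells, 55.7 in TME cells and 63.9 in control cells. The order of that sum came from *Act57B*, at 2.77 FPKM in tumor cells, 24.5 in TME cells and 42.3 in control cells, while *sls* was called higher in tumor against control cells, with a ratio of 3.61. The 3 tracheal markers summed to 296 FPKM in tumor cells, 360 in TME cells and 81.7 in control cells, most of it from *Gasp*. The other 2, *btl* and *trh*, were under 5 FPKM in every library, with tumor over control ratios of 0.552 and 0.461.

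Whether strand was used in counting is not stated in the sources used here, so reads of a gene and of one that overlaps it on the other strand cannot be told apart. By the BDGP6 annotation, *dm* lies on chromosome X, and 3754 nt of its exons overlap *CG12535* on the opposite strand. *CG12535* was at 0.879 FPKM in the tumor and listed at 0 in the TME and the control. On the same strand, 1859 nt of the *dm* exons overlap the noncoding *lncRNA:CR44999*, for which no FPKM was found. Reads of that overlap cannot be assigned to either gene even with strand. *Tif-IA*, *RpI135*, *nop5* and *Nnp-1* lie on chromosome arm 2L, *RpI1*, *Fib* and *Nop60B* on 2R, and *pit* on 3R. *Nop60B* holds 6 snoRNA genes within its annotation. Of the 41 other ribosome biogenesis genes in that annotation, 2 share over 10% of their exons with a protein-coding gene, among them *CG7637*. *CG18316* shares 33.3% of its exons with a transposable element on the same strand, so its FPKM may hold reads of that element.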

How the data were processed

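RNA was measured in 3 libraries of sorted eye-antennal disc cells, 1 per group. Per the paper's methods, the authors used TruSeq kits and a MiSeq, aligned to *Drosophila* release 5.2 with the Tuxedo suite, and deposited FPKM values per gene. Which version of the suite and which gene models were used is not stated in the sources used here. The labels name Trizol for RNA extraction and the methods name Qiagen kits. FPKM is set by the total of each library, so a few abundant genes can shift all others.

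Columns were matched to samples by their headings. The annotation of BDGP6, which is not the release the authors used, gave transcript lengths, symbols and overlaps, and 97.1% of genes matched. No coordinates are printed from it. Library depth was fitted so that low FPKM values of transcripts between 400 and 4000 nt became whole fragments. Of such low values, 82.8% in tumor cells, 77.6% in TME cells and 81.3% in control cells came within 0.1 of a whole number, where chance gives 20%. Intervals of ratios are exact Clopper-Pearson intervals, computed with the shortest annotated transcript. Steps were tested on simulated data.

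Genes named beyond the 9 are, of each list, those with the largest and smallest tumor over control ratio and those that passed the rule, with a few partners added, and 1 result is not reported here. The genes and lists were chosen with earlier results of these data known. Alternatives covered the scaling, the ratio, the FPKM floor, a pseudocount and the transcript length. Promoter motifs were not searched and no sequences were used here. Python 3.11.15, numpy 2.4.6, pandas 2.3.3, scipy 1.17.1 and matplotlib 3.10.9 were used.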

Additional observations from a re-analysis of the deposited data

How the results depend on the processing

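No called result changed direction under any alternative tried. The uncalled tumor over control ratio of *Tif-IA* crossed 1, to 0.976, without the 100 most abundant genes, and 1 of the 43 other biogenesis genes was called lower for tumor over TME with a ratio of 1.5. With 1 library per group, no library could be left out. No paired analysis was possible because each group has 1 library. Median ratio scaling subtracted 0.12 from every log2 ratio of tumor over TME and -0.16 from those of TME over control, upper quartile scaling subtracted 0.13 and -0.14, and leaving the 100 most abundant genes out of the totals subtracted 0.10 from those of tumor over TME. For tumor over control, the 6 of 9 genes called higher became 3 with a ratio of 3, and the 24 of 43 other biogenesis genes became 7. For tumor over TME, the 1 gene called became 0 under median ratio scaling, 0 under upper quartile scaling, 5 with a ratio of 1.5 and 0 with a ratio of 3, and the 9 of the other list became 3, 2, 23 and 0 in the same settings and 3 without the 100 most abundant genes. For TME over control, the 2 genes became 5 under median ratio scaling, 4 under upper quartile scaling, 6 with a ratio of 1.5, 0 with a ratio of 3 and 1 with a pseudocount of 1, and the 3 of the other list became 5, 5, 12 and 0 in the first 4 of these settings. The tumor over control counts at a ratio of 2 stayed within 1.5 times under every scaling, floor and pseudocount. With the longest annotated transcript, the intervals lay above 1 for 8, 9 and 6 of the 9 genes, as with the shortest. Depth limits the control and tumor values most, and *RpI135* most of the 9, with 34 fragments in the control.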

Other observations

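Genes of the ribosome itself did not share the pattern of the genes that build it in either comparison with the tumor. The 87 cytosolic ribosomal protein genes were chosen by symbol after other values were seen. None was called higher in tumor against control cells and 4 were lower, against 12.3% and 17.6% of all genes. The median ratio was 0.981 over the 82 above 0 in both. The genes were spread on both sides of 1, with the interval above 1 for 26 of 78 and below 1 for 31. The 4 called lower were *RpL38*, *RpS5b*, *RpS10a* and *RpS28a*. *RpL38* was at 1581 FPKM in tumor cells, 2866 in TME cells and 3276 in control cells, and the others were under 25 FPKM in every library. The median ratio was 0.860 for tumor over TME, against 1.12 over all genes, and 1.15 for TME over control, against 0.917. For TME over control the ratio was above 1 for 71 of the 81 above 0 in both. The interval there lay above 1 for 65 of 77, against 20.5% of all genes. Of the 87, 7 were in the order tumor, TME, control, against 26.2% of 7765 genes.

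Subunits of the other RNA polymerases, chosen by symbol as RpII or RpIII with a number, were read in the same way. This choice gave 1 gene for RNA polymerase III. It leaves out subunits named otherwise and does not set apart those shared between polymerases. None of 5 RNA polymerase II genes was called in any comparison, with median ratios of 1.10 for tumor over control, 1.17 for tumor over TME and 0.944 for TME over control. *RpII215*, the largest subunit, was at 42.1 FPKM in tumor cells, 25.9 in TME cells and 31.8 in control cells. *RpIII128*, a subunit of RNA polymerase III, was at 12.0 FPKM in tumor cells, 8.39 in TME cells and 13.3 in control cells.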
